A study of Mus musculus with 46 samples.

Results

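Open chromatin of AgRP neurons was compared between mice that had been fasted and then given leptin and mice that had been fed throughout. The members were the 4 ATAC-seq libraries of these states (2 leptin and 2 fed) out of 46 samples in the series, and every peak of their count table with a mean level of over 1 CPM (counts scaled to a common library size), which left 102237 of 123721 peaks. All libraries came from male C57BL/6J mice, 6 to 11 weeks old, that carried the NuTRAP reporter and AgRP-IRES-Cre, so that nuclei of cells with Cre were marked by a fluorescent protein and could be sorted. Each library pooled the arcuate nuclei of 4 mice, so that a p-value rests on the spread between 2 such pools a group. The fed mice ate chow ad libitum and were injected with PBS (vehicle). The leptin mice were fasted overnight (18 to 20 hours) and injected with leptin at 5 mg/kg. Mice of both groups were killed 3 hours after the injection. The 2 groups therefore differed in food as well as in leptin, and these cannot be told apart within this comparison. A further 2 libraries, of mice fasted overnight and injected with PBS, were counted on the same peaks, and their levels are given beside the others.

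AgRP neurons of the arcuate nucleus release the peptides AgRP and NPY and the transmitter GABA, are active in hunger and drive feeding. Leptin, the hormone that fat tissue releases, lowers their activity and acts through its receptor and the kinase JAK2 on the transcription factor STAT3. ATAC-seq measures where a transposase can enter the DNA, and an open chromatin region (OCR, or peak) that gains reads is called opened here and one that loses reads closed. AP-1 is a pair of proteins of the FOS, JUN and ATF families, which are induced when neurons are active and bind the site TGANTCA, mostly at enhancers.

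The sequences of 11 peaks are shown because the opened and the closed peaks differed in the motifs they held. Each is the central 200 bases of a peak, 5′ to 3′ on the plus strand of GRCm38, taken from the RefSeq assembly. In the first 7, which opened, capitals mark matches to the AP-1 consensus TGANTCA. They lie near *Npy* (chr6:49821202-49821401), in an intron of *Atf3* (chr1:191189956-191190155), near *Kcna1* (chr6:126653670-126653869), in an intron of *Nr3c2* (chr8:76991736-76991935), near *Hspa5* (chr2:34770214-34770413), far from any coding gene start with *Mocs2* the nearest (chr13:114654353-114654552) and in an intron of *Pik3r1* (chr13:101686359-101686558). The eighth, near *Ephb6* (chr6:41600060-41600259), opened and held no AP-1 match. The last 3 closed. In the intron of *Asb4* (chr6:5403533-5403732) capitals mark a match to the RFX consensus GTTGCCATG on the other strand, in an intron of *Igf1r* (chr7:68155040-68155239) a match to the MEF2 consensus CTATTTNTA, and the intron of *Lrp1b* (chr2:40864378-40864577) held no AP-1 match.
Npy upstream: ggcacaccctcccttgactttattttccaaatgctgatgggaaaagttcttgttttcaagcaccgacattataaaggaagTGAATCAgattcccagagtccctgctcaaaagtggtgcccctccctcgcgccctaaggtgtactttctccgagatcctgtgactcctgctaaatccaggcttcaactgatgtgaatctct
Atf3 intron: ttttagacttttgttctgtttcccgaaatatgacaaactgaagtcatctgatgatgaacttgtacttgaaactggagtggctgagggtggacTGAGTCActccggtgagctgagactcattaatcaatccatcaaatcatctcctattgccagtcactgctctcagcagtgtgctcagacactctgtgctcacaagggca
Kcna1 flank: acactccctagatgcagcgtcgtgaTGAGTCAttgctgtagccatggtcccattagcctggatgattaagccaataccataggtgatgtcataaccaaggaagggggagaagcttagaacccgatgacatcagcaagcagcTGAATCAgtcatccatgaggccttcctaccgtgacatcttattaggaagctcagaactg
Nr3c2 intron: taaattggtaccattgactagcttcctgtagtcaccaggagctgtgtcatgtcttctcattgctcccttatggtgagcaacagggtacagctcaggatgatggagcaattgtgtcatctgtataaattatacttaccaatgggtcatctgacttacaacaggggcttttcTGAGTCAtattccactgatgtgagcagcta
Hspa5 flank: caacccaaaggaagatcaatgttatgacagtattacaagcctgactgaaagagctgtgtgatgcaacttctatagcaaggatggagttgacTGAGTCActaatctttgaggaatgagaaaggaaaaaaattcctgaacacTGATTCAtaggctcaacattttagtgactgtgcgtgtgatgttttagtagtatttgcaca
Mocs2 distal: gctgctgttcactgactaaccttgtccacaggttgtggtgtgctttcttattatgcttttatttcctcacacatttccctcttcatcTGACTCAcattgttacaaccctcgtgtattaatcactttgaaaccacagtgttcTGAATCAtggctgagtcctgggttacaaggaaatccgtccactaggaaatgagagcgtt
Pik3r1 intron: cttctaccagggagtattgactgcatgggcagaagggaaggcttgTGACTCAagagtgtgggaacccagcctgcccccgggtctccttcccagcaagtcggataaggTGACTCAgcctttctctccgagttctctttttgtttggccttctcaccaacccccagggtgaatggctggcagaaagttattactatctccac
Ephb6 flank: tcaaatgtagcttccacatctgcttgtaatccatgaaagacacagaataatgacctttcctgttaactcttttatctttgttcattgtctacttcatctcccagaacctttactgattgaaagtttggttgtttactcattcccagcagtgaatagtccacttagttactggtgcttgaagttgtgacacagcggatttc
Asb4 intron: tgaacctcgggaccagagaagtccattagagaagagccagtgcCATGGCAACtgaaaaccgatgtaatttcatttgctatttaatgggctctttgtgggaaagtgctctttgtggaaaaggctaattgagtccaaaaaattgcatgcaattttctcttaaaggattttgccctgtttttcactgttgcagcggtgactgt
Igf1r intron: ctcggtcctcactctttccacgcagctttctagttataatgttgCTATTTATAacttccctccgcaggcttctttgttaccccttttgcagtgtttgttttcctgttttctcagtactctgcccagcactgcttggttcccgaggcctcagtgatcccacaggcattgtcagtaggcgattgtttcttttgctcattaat
Lrp1b intron: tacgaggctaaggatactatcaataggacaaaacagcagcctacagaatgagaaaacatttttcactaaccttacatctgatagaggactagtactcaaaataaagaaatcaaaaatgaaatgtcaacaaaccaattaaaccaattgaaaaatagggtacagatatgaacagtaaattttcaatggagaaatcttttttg

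The fed libraries held 8263234 and 14324992 counts on peaks, the leptin libraries 14455862 and 17190963 and the fasted libraries 15745558 and 15710305. Across the 102237 peaks, log2 CPM of the 2 fed libraries correlated at r = 0.935 and of the 2 leptin libraries at r = 0.958. Between leptin and fed libraries r lay between 0.713 and 0.818, and between leptin and fasted libraries between 0.909 and 0.937. These correlations are across peaks, which share their base composition and annotation and are not independent replicates. Of the counts on tested peaks, promoter peaks took 51.5% and 54.8% in the fed libraries and 45.6% and 46.9% in the leptin libraries. Mitochondrial peaks took between 0.692% and 1.68% in all 6 libraries. The table held no count of 0. Its lowest value, 1, stood at 4245 and 1491 peaks in the fed and at 1223 and 442 in the leptin libraries, and whether it stands for no read is not given in the sources used here. The marker of the sorted cells was present. The peak at the *Agrp* start site was at 105 to 144 CPM in every library. In separately sorted nuclei its level was higher in AgRP-positive than in AgRP-negative nuclei by 3.39 on the log2 scale.

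Leptin-treated fasted mice differed from fed mice at 36.8% of the peaks, and opening was more frequent than closing. Of 102237 peaks tested, 23870 (23.3%) were opened and 13747 (13.4%) were closed by edgeR's quasi-likelihood test. A call needed a Benjamini-Hochberg adjusted p (FDR) under 0.05 and a change of over 0.5 on the log2 scale in either direction. The median log2 fold change was 1.84 in the opened and -1.38 in the closed peaks. A change of over 4-fold was seen in 9939 of the opened peaks (41.6%) and in 2661 of the closed peaks (19.4%). The 2 leptin libraries did not overlap the 2 fed libraries in 23862 of the opened and 13711 of the closed peaks, and the same was true of 71.0% of all peaks tested. An unadjusted p under 0.05 was found at 48947 peaks. Without leptin replicate 1, 8034 peaks were closed, and without leptin replicate 2, 7306. With an offset for GC content the counts were 19728 opened and 17274 closed, so that opened peaks were 53.3% of the calls in place of 63.5%. With 1 subtracted from every count, a setting chosen after seeing the data, they were 24124 and 13415. The filter took the mean over all 6 libraries. A peak open in the fasted and leptin libraries thus passed it more easily than one open in the fed libraries alone. With at least 10 counts in all in place of 1 CPM, opened peaks were 62.6% of the calls, and with a mean over 5 CPM 70.8%.

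**Figure D1:**
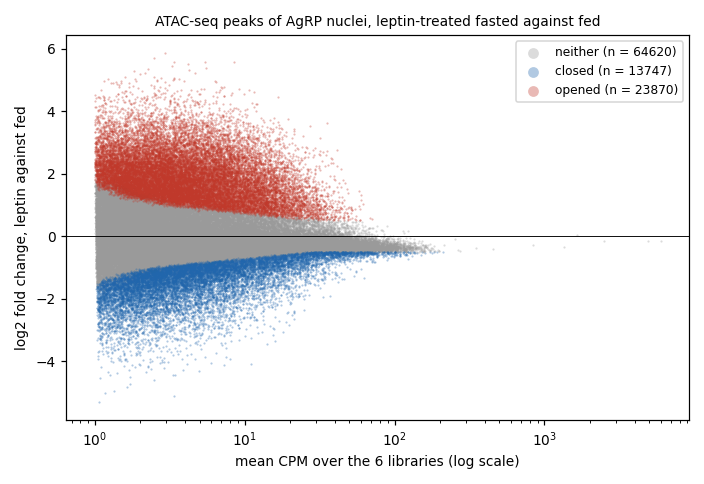
Each point is 1 of 102237 peaks, with its mean CPM over the 6 libraries on a log axis and its log2 fold change of leptin against fed on the vertical axis. The 23870 opened peaks (red) reach a log2 fold change of 5.87 and the 13747 closed peaks (blue) -5.30, and both kinds thin out at peaks of high level, where grey uncalled peaks lie mostly below 0.

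The levels of the fasted libraries at these peaks, which did not enter the calls except through the shared spread and the filter on level, lay much nearer to those of the leptin libraries than to those of the fed libraries. In the opened peaks the median level was 1.26 and 1.54 CPM in the fed, 4.33 and 4.54 CPM in the fasted and 5.91 and 5.43 CPM in the leptin libraries. In the closed peaks it was 7.93 and 6.14 CPM in the fed, 3.49 and 3.09 CPM in the fasted and 2.39 and 2.43 CPM in the leptin libraries. Peaks that were called in neither direction had medians between 3.68 and 4.15 CPM in all 6 libraries. The groups were chosen on the fed and leptin values, so that the gap between those 2 groups is a description. Opened peaks took 5.76% and 7.15% of the counts on tested peaks in the fed, 17.1% and 17.3% in the fasted and 21.4% and 20.4% in the leptin libraries.

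The 3 comparisons that the states allow share their libraries in pairs and are given side by side. Fasted against fed called 18512 peaks opened and 9075 closed (18.1% and 8.88%). Leptin against fasted called 2462 opened and 684 closed (2.41% and 0.669%), with an unadjusted p under 0.05 at 14198 peaks. In the peaks opened by leptin against fed, the median log2 fold change was 1.51 for fasted against fed and 0.28 for leptin against fasted. In the closed peaks these medians were -0.95 and -0.37, and over all peaks tested -0.04 and -0.02.

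**Figure D2:**
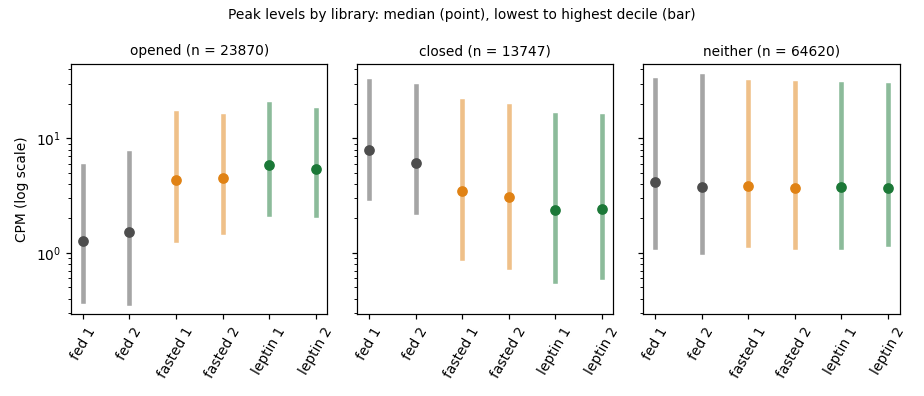
The level in CPM (log axis) of the opened, the closed and the uncalled peaks in each of the 6 libraries, with the median as a point and the lowest to the highest decile as a bar. In the opened peaks the fasted medians (4.33 and 4.54 CPM) and the leptin medians (5.91 and 5.43 CPM) sit above the fed ones (1.26 and 1.54 CPM), and in the closed peaks the order is turned.

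Opened peaks lay away from promoters. A promoter, taken as 1000 bases before to 100 bases after an annotated start site, held 3.07% of the opened, 9.92% of the closed and 22.1% of the uncalled peaks, beside 16.0% of all peaks. With the GC offset the opened share was 4.11%, the closed share 4.28% and the uncalled share 22.7%. Opened and closed peaks then hardly differed in it. Introns held 54.4% of the opened and 48.1% of the closed peaks, and the median distance to the nearest start site of a coding gene was 37.3 kb for opened, 41.7 kb for closed and 21.4 kb for uncalled peaks. Read by class, 4.47% of 16374 promoter peaks were opened and 8.33% were closed, while 27.0% of 48094 intron peaks were opened and 13.8% closed. Over all peaks these shares were 23.3% and 13.4%. The median log2 fold change of promoter peaks was -0.27 and that of intron peaks 0.18.

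Closed peaks were largely regions that a separate set of mice also showed as open, and opened peaks were largely not. The peaks of that set, from sorted nuclei whose sample titles name no feeding state, were called and counted apart. Of the opened peaks 28.2% overlapped one of them, beside 75.4% of the closed and 59.7% of the uncalled peaks. Of the 46589 peaks with no counterpart there, 36.8% were opened and 7.26% closed, beside 23.3% and 13.4% of all peaks. Of the 66560 peaks tested there, 23.9% were higher in AgRP-positive and 15.6% in AgRP-negative nuclei. Of the 15757 peaks here that overlapped one higher in AgRP-positive nuclei, 26.2% were opened and 23.8% closed. Of the 5409 that overlapped one higher in AgRP-negative nuclei, 2.88% were opened and 17.4% closed. These last took 8.88% and 7.52% of the counts on tested peaks of the fed, 6.92% and 6.61% of the fasted and 7.28% and 6.57% of the leptin libraries, and the part of this difference in the calls was not tested.

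Sites of the insulator protein CTCF and of the interferon regulatory factor IRF3, mapped by CUT&RUN in AgRP nuclei of other mice (1 sample each, the IRF3 sample from mice with a constitutively active IRF3, whose deposited list was matched to it as the only SEACR list), were rare in the opened peaks. A CTCF peak overlapped 5.07% of the opened, 25.4% of the closed and 25.9% of the uncalled peaks. An IRF3 peak overlapped 1.79%, 10.6% and 12.7%. Of the 10098 peaks with an IRF3 peak, 427 were opened and 1452 were closed (4.23% and 14.4%, beside 23.3% and 13.4% of all peaks). The closed share was thus near that of all peaks. Peaks with a CTCF peak were 21.0% of tested peaks and took 45.9% and 45.3% of the counts in the fed libraries. Those with an IRF3 peak were 9.88% and took 29.8% and 31.6%. In the leptin libraries these shares of counts were 39.7% and 39.4% for CTCF and 25.6% and 26.4% for IRF3. The CTCF consensus CANNAGNGG differed less, at 16.8% of the opened, 19.2% of the closed and 22.1% of the uncalled peaks. The part of level and promoter share in these overlaps was not tested.

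**Figure D3:**
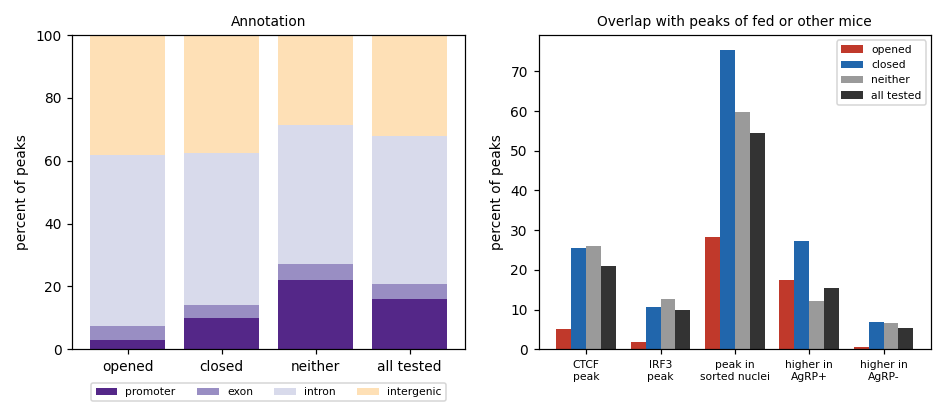
The left panel stacks the share of promoter, exon, intron and intergenic peaks among opened, closed, uncalled and all tested peaks. The right panel gives the percent of each set that overlapped a CTCF or IRF3 CUT&RUN peak or a peak of the separately sorted nuclei. For the latter it gives any peak and those higher in AgRP-positive or AgRP-negative nuclei. The opened set has the smallest promoter share (3.07%), and 28.2% of it overlapped a peak of the sorted nuclei beside 75.4% of the closed set.

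The opened peaks held the AP-1 site more often than the others. A match to TGANTCA, which reads the same on both strands, was found in the central 300 bases of 69.9% of the opened, 5.65% of the closed and 23.9% of the uncalled peaks, and of 32.2% of all peaks. Of the matches, 4.73% overlapped a match to another of the 18 motifs searched. The shares changed little among peaks outside promoters (70.2%, 6.05% and 28.9%) and with the GC offset (70.3% of opened and 7.52% of closed peaks). The share of opened peaks rose with the number of matches. It was 10.4% of 69310 peaks with no match, 45.1% of 26397 with 1, 72.1% of 5726 with 2 and 82.2% of 771 with 3 or more. The share of closed peaks ran the other way, from 18.7% with no match through 2.83% and 0.472% to 1 peak of 771.

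In opened peaks the matches stood near the middle. Of those in opened peaks, 50.3% lay within 50 bases of the centre, beside 45.8% in uncalled and 30.2% in closed peaks. The form TGACTCA, which is TGAGTCA on the other strand, occurred in 56.7% of the opened and 25.1% of all peaks. The form TGAATCA, or TGATTCA, occurred in 21.6% and 9.85%. Of the peaks with the first form 52.9% were opened, and of those with the second 51.2%, beside 23.3% of all peaks. Peaks of different kinds showed the same order. Among promoter peaks 32.2% of 1366 with a match and 1.95% of 15006 without one were opened. Among peaks higher in AgRP-positive nuclei these shares were 47.4% and 13.9%, and among those higher in AgRP-negative nuclei 17.4% and 1.58%. A match is a run of letters and not a measured binding site.

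**Figure D4:**
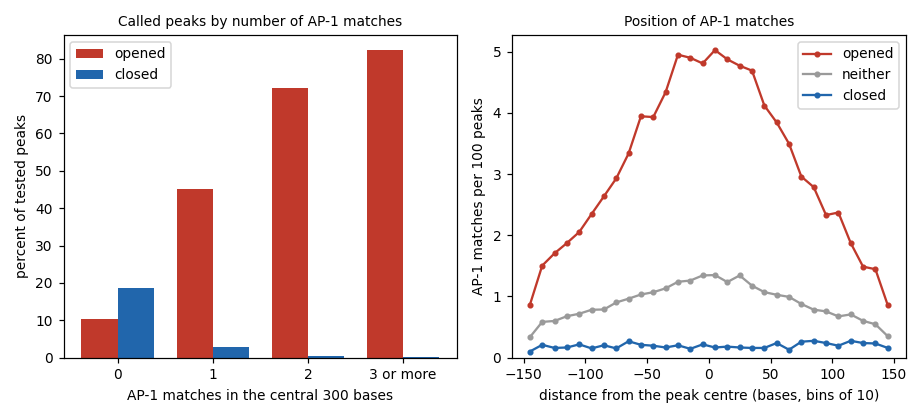
The left panel gives the percent of tested peaks that were opened (red) or closed (blue) by the number of AP-1 matches in their central 300 bases, from 10.4% and 18.7% with none to 82.2% opened with 3 or more. The right panel gives AP-1 matches per 100 peaks in bins of 10 bases by distance from the peak centre, and the line of the opened peaks is the highest and peaks at the centre (the outermost bins hold fewer possible positions).

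Peaks with AP-1 matches were low in fed mice. Those with 1 match had medians of 1.76 and 2.05 CPM in the fed, 3.62 and 3.66 CPM in the fasted and 4.22 and 3.90 CPM in the leptin libraries. Those with none had medians of 5.04 and 4.31, 3.94 and 3.91, and 3.87 and 3.85 CPM. The 7195 opened peaks without a match had median log2 fold changes of 1.76 for leptin against fed, 1.35 for fasted against fed and 0.35 for leptin against fasted, and the 16674 with a match 1.86, 1.57 and 0.26.

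GC-rich motifs were rare in the opened peaks. The NRF1 consensus GCGCANGCG, which reads CGCNTGCGC on the other strand, was found in 0.101% of the opened, 1.16% of the closed, 2.46% of the uncalled and 1.73% of all peaks. The EGR consensus GCGNGGGCG, or CGCCCNCGC, was found in 0.184%, 1.37%, 3.17% and 2.23%, and the SP/KLF consensus GGGGCGGGG, or CCCCGCCCC, in 0.691%, 2.44%, 4.37% and 3.25%. Outside promoters these motifs stood in 0.0819%, 0.134% and 0.609% of the opened and 0.712%, 0.668% and 1.38% of the uncalled peaks. Of their matches 2.47% and 17.8% of the first and second and 13.2% of the third overlapped another motif. With the GC offset NRF1 stood in 0.213% of the opened, 0.324% of the closed and 2.57% of the uncalled peaks. EGR then stood in 0.431%, 0.261% and 3.30%, and SP/KLF in 0.923%, 0.683% and 4.64%. The order of opened and closed peaks was thus turned for EGR and SP/KLF, while uncalled peaks stayed the highest.

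The STAT consensus TTCNNNGAA was found in 15.6% of the opened, 11.8% of the closed and 12.4% of all peaks. Among peaks without an AP-1 match it was found in 19.0% of the opened, 11.7% of the closed and 11.2% of the uncalled peaks. The glucocorticoid receptor consensus ACANNNTGT stood in 16.3% of the opened, 14.4% of the closed and 13.2% of all peaks, and the IRF consensus GAAANNGAA (TTCNNTTTC on the other strand) in 9.72%, 11.6% and 9.76%. Matches of these 3 overlapped a match to another motif in 4.72%, 3.47% and 5.56% of cases. In the closed peaks the RFX consensus GTTGCCATG (CATGGCAAC), bound by factors that act on genes of cilia, was found in 4.45%, beside 0.633% of the opened and 1.98% of all peaks. Of the peaks that held it, 30.3% were closed, beside 13.4% of all peaks. The MEF2 consensus CTATTTNTA (TANAAATAG), bound by activity-dependent factors of neurons and muscle, was found in 4.20% of the closed, 2.08% of the opened and 2.49% of all peaks. RFX and MEF2 matches overlapped another motif in 3.69% and 3.77% of cases.

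Over the 11 AgRP markers, 24 of 111 peaks were opened and 14 closed (21.6% and 12.6%, beside 23.3% and 13.4% of all peaks), and the median log2 fold change was -0.13, beside -0.05 over all peaks. Of their 17 start-site peaks 1 was opened and 2 were closed. The peak at the *Agrp* start site (chr8:105567254-105568511) was at 118 and 105 CPM in the fed, 144 and 122 CPM in the fasted and 135 and 112 CPM in the leptin libraries. The leptin libraries overlapped both other groups, the fasted ones lay above the fed ones, and its log2 fold change for leptin against fed was 0.15 (SE 0.12, FDR = 0.313 by edgeR), or 0.59 (FDR = 0.000715) with an offset that follows the level. At the start-site peak of *Npy*, with 34.5 and 36.8, 47.8 and 42.3, and 45.2 and 31.6 CPM, the leptin libraries likewise overlapped both other groups and the fasted ones lay above the fed ones. The peak shown above, 1.41 kb from the *Npy* start, was at 5.92 and 7.61 CPM in the fed, 31.3 and 24.2 CPM in the fasted and 33.2 and 27.7 CPM in the leptin libraries. Both leptin libraries stood well above both fed ones and beside the fasted ones (log2 fold change 2.13, SE 0.26, FDR = 1.28e-05). In *Npy* with 10 kb on each side, 5 of 9 peaks were opened and 0 closed, and in *Agrp* 2 of 13 and 0. The annotated *Agrp* gene reaches a further peak counted at a start site, chr8:105635990-105637557, which lies 0.195 kb from the start of *Ctcf*. In the separately sorted nuclei its log2 difference, AgRP-positive against AgRP-negative, was -0.61. Some peaks counted at *Agrp* may thus belong to other genes.

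Other AgRP markers moved both ways, and over all peaks 23.3% were opened and 13.4% closed. In *Gad2*, which encodes an enzyme of GABA synthesis, 6 of 12 peaks were opened and 1 was closed, and an intron peak (chr2:22651832-22652530) was at 5.04 and 6.65 CPM in the fed, 33.1 and 25.5 CPM in the fasted and 29.5 and 23.6 CPM in the leptin libraries. A peak 8.24 kb from the start of *Asb4*, a gene of feeding neurons of the arcuate nucleus, fell from 64.3 and 60.8 CPM in the fed to 23.8 and 24.2 CPM in the leptin libraries, with 28.0 and 27.2 CPM in the fasted ones (log2 fold change -1.38, SE 0.17, FDR = 1.31e-05), and of 13 *Asb4* peaks 3 were opened and 5 closed. The start-site peaks of *Corin* and *Otp*, a protease and a transcription factor of AgRP neurons, were lower in leptin than in fed libraries by FDR = 0.0455 and 0.00787, and both calls were lost with the GC offset (FDR = 0.195 and 0.0655), without fed replicate 1 (0.268 and 0.0578) and without leptin replicate 2 (0.274 and 0.116). Without leptin replicate 1 the FDR of *Corin* was 0.0691. The start-site peaks of the ghrelin receptor *Ghsr* and of *Lepr* had FDR = 0.523 and 0.438 and changed sign in some alternatives. The opened start-site peak was 1 of 3 at *Gad1*, the other enzyme of GABA synthesis, at 0.755 and 0.293 CPM in the fed, 1.36 and 1.70 CPM in the fasted and 1.62 and 2.77 CPM in the leptin libraries (FDR = 0.00849), and this call was lost without fed replicate 2 and without leptin replicate 2.

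Of the 95 peaks at 19 genes of leptin receptor signaling, 19 were opened and 9 closed (20% and 9.47%, beside 23.3% and 13.4% of all peaks), and the median log2 fold change was -0.10. The opened peak described first lay in an exon of *Stat3* (chr11:100887105-100887805), the factor through which the leptin receptor acts on genes. This peak was at 1.76 and 2.71 CPM in the fed, 9.89 and 7.51 CPM in the fasted and 22.5 and 13.6 CPM in the leptin libraries, and the 3 groups did not overlap. Its log2 fold change was 2.92 for leptin against fed (SE 0.39, FDR = 2.31e-05), 1.88 for fasted against fed (FDR = 0.00324) and 1.04 for leptin against fasted (FDR = 0.0470). In *Ptpn2*, a phosphatase of JAK and STAT proteins, an intron peak rose from 1.01 and 1.97 to 12.7 and 9.22 CPM, with 9.83 and 11.7 CPM in fasted mice. In *Bcl3*, 6 of 9 peaks were opened. The start-site peak of *Irs1*, an adaptor of the insulin receptor, fell from 68.5 and 57.8 to 39.2 and 44.0 CPM (FDR = 0.00650), a call lost with the GC offset (FDR = 0.258), without leptin replicate 1 (FDR = 0.0640) and without fed replicate 1, where its log2 fold change was -0.47. The intron peak of *Jak2* fell from 4.03 and 3.51 to 1.83 and 0.736 CPM (FDR = 0.00866), and without leptin replicate 2 its FDR was 0.142.

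Genes that the study named as raised by leptin had 30 of 90 peaks opened and 7 closed (33.3% and 7.78%, beside 23.3% and 13.4% of all peaks, median log2 fold change 0.17). That list was chosen on RNA of the same study and is not independent of these states. A peak 5.32 kb from the start of *Ephb6*, a receptor of the ephrin family, was at 0.755 and 0.731 CPM in the fed, 2.33 and 4.48 CPM in the fasted and 13.4 and 15.2 CPM in the leptin libraries. Its log2 fold change was 4.26 (SE 0.47, FDR = 5.40e-06), and leptin against fasted gave 2.07 (FDR = 0.000687). The start-site peak of *Gpr151*, an orphan receptor, was at 2.90 and 2.63, 6.08 and 5.93, and 23.0 and 17.3 CPM, with no overlap between the 3 groups. Its RNA, isolated from ribosomes of AgRP neurons of other mice in the same states, was at 0.811 ± 0.140 CPM in 3 fed, 1.04 ± 0.373 CPM in 4 fasted and 16.5 ± 3.68 CPM in 4 leptin-treated libraries (mean ± SD), with a log2 fold change for leptin against fed of 4.34 (FDR = 7.45e-05 by edgeR). RNA is given below as mean ± SD over these libraries in that order. In such bulk samples fewer cells of a type and less RNA per cell cannot be told apart. For *Ephb6* the RNA was at 65.9 ± 6.14, 48.5 ± 4.19 and 71.4 ± 8.65 CPM (FDR = 0.627). Of the Golgi mannosidases on the list, *Man2a1* had 7 of 14 peaks opened and 1 closed, and *Man1a* 0 of 7 opened and 1 closed. The closed *Man1a* peak was at 6.04 and 3.44 CPM in the fed, 0.582 and 0.568 CPM in the fasted and 0.352 and 0.396 CPM in the leptin libraries.

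The list of genes named as raised by fasting had 31 of 113 peaks opened and 11 closed (27.4% and 9.73%, beside 23.3% and 13.4% of all peaks), with the same limit on its independence. All 4 peaks of *Kcnv2*, a modifying subunit of voltage-gated potassium channels, were opened. The one in an exon was at 0.378 and 0.439 CPM in the fed, 8.21 and 6.69 CPM in the fasted and 9.01 and 7.81 CPM in the leptin libraries (log2 fold change 4.30, SE 0.53, FDR = 1.24e-05). The *Kcnv2* RNA was at 0.263 ± 0.0339, 3.88 ± 1.62 and 1.37 ± 1.28 CPM (leptin against fed FDR = 0.0651, or 0.0104 with the replicate number as a block), and 1 of its 4 leptin libraries was at 3.27 CPM and the others at 0.505 to 0.900 CPM. In *Lyve1*, a hyaluronan receptor, 2 of 4 peaks were opened and 1 was closed. The closed intron peak was at 32.2 and 26.5 CPM in the fed, 24.3 and 14.5 CPM in the fasted and 9.29 and 7.36 CPM in the leptin libraries (log2 fold change -1.81, SE 0.27, FDR = 6.61e-05). The RNA was at 0.987 ± 0.554, 28.1 ± 8.64 and 19.5 ± 6.34 CPM (log2 fold change 4.25, FDR = 0.000516).

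At 24 genes of AP-1 subunits and of activity, 17 of 91 peaks were opened and 11 closed (18.7% and 12.1%), near the 23.3% and 13.4% of all peaks. *Atf3*, which encodes an AP-1 partner induced by injury and stress, had 5 of 7 opened and 1 closed. Its intron peak was at 5.67 and 9.14 CPM in the fed, 32.5 and 25.4 CPM in the fasted and 34.99 and 26.0 CPM in the leptin libraries (log2 fold change 1.97, SE 0.27, FDR = 3.19e-05). Its RNA was at 5.12 ± 1.10 CPM in fed, 8.62 ± 2.09 CPM in fasted and 44.7 ± 13.8 CPM in leptin-treated mice, so that the peak stood as high in fasted as in leptin-treated mice while the RNA did not. At *Fos* 0 of 4 peaks were called, and at *Jun* 1 of 2 was closed. A peak 4.38 kb from the start of *Egr1*, an immediate early gene, fell from 9.95 and 10.3 CPM in the fed to 1.76 and 2.04 CPM in the leptin libraries, with 1.75 and 1.39 CPM in the fasted ones (FDR = 3.23e-05).

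The RNA of AP-1 subunits differed in its order between states. *Fos* was at 17.5 ± 4.75, 44.5 ± 7.98 and 29.6 ± 2.99 CPM, higher after leptin than in fed mice (log2 fold change 0.76, FDR = 0.0351). *Jun* was at 67.1 ± 8.6, 63.8 ± 1.69 and 137 ± 20.3 CPM (log2 fold change 1.03, FDR = 0.000976) and *Junb* at 197 ± 14.9, 292 ± 24.8 and 292 ± 39.2 CPM (0.57, FDR = 0.0152). *Fosb* was at 11.3 ± 4.68, 18.1 ± 3.82 and 6.10 ± 1.04 CPM (-0.88, FDR = 0.0563, or 0.00472 with the block). *Maff*, a small Maf protein, was at 4.91 ± 0.219, 8.70 ± 0.702 and 11.5 ± 1.35 CPM (1.22, FDR = 0.000399). *Fosl1*, *Fosl2* and *Jund* were not called (FDR = 0.931, 0.850 and 0.312).

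Receptors for hormones and peptides had 17 of 83 peaks opened and 11 closed (20.5% and 13.3%), near the shares of all peaks. In *Cckbr*, a receptor for cholecystokinin and gastrin, an intron peak was at 2.77 and 4.75 CPM in the fed, 20.6 and 21.2 CPM in the fasted and 27.7 and 24.1 CPM in the leptin libraries (log2 fold change 2.70, SE 0.30, FDR = 5.71e-06). The opioid receptor gene *Oprm1* had an intron peak that rose from 1.76 and 2.19 to 10.4 and 10.8 CPM, with 10.4 and 7.32 CPM in fasted mice. Both peaks of the other opioid receptor gene, *Oprk1*, closed, and 1 of them fell from 10.6 and 5.85 to 0.915 and 1.47 CPM, with 3.43 and 1.58 CPM in fasted mice.

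Receptors and targets of corticosteroids had 34 of 115 peaks opened and 16 closed (29.6% and 13.9%, beside 23.3% and 13.4% of all peaks, median log2 fold change 0.12). Of these 34, 12 lay at *Nr3c2*, the mineralocorticoid receptor, which had 29 peaks and 3 closed ones. Its intron peak shown above was at 1.76 and 2.56 CPM in the fed, 16.4 and 14.3 CPM in the fasted and 21.6 and 22.4 CPM in the leptin libraries (log2 fold change 3.28, SE 0.34, FDR = 3.55e-06). The *Nr3c2* RNA was at 30.1 ± 0.937, 25.7 ± 3.07 and 54.0 ± 6.72 CPM (leptin against fed 0.84, FDR = 0.00186), with 1 leptin library at 64.1 CPM and the others at 49.9 to 51.4 CPM. The phosphatase gene *Dusp1* had 5 of 10 peaks opened and 0 closed, and the glucocorticoid receptor gene *Nr3c1* 3 of 10 and 0.

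Insulin and FoxO signaling genes had 12 of 116 peaks opened and 20 closed (10.3% and 17.2%, beside 23.3% and 13.4% of all peaks, median log2 fold change -0.16). With 50 kb on each side the balance turned, with 29 of 193 opened and 26 closed (15.03% and 13.5%). The gene lists were not matched to all peaks in their share of promoter peaks, of which 4.47% opened, beside 27.0% of intron peaks. *Foxo1*, a transcription factor that insulin holds out of the nucleus, had 0 of 11 opened and 3 closed. The receptor gene *Igf1r* had an intron peak, other than the one shown above and 1 of 4 closed among 11, that fell from 24.8 and 14.9 to 3.59 and 3.85 CPM, with 5.04 and 4.23 CPM in fasted mice (log2 fold change -2.36, SE 0.32, FDR = 2.72e-05). In the insulin receptor gene *Insr*, with 1 of 9 peaks opened and 2 closed, an intron peak fell from 9.57 and 12.6 to 2.89 and 3.90 CPM, with 4.4 and 5.93 CPM in fasted mice. The intron peak of *Pik3r1*, the regulatory subunit of phosphoinositide 3-kinase, was at 1.26 and 0.951 CPM in the fed, 0.776 and 1.45 CPM in the fasted and 4.65 and 4.30 CPM in the leptin libraries. Here the fasted libraries stood with the fed ones, and leptin against fasted gave a log2 fold change of 1.99 (FDR = 0.00601) beside 2.06 (SE 0.44, FDR = 0.00131) for leptin against fed.

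Circadian clock genes had 21 of 148 peaks opened and 25 closed (14.2% and 16.9%, beside 23.3% and 13.4% of all peaks). With 50 kb on each side the balance turned, with 46 of 263 opened and 30 closed (17.5% and 11.4%). The start-site peak of *Tef*, a transcription factor under clock control, fell from 46.0 and 60.3 CPM in the fed to 18.8 and 22.0 CPM in the leptin libraries, with 20.04 and 31.2 CPM in the fasted ones (log2 fold change -1.39, SE 0.22, FDR = 8.48e-05). The repressor gene *Cry2* had an intron peak at 32.0 and 32.5, 17.1 and 20.7, and 10.8 and 13.1 CPM (-1.43, SE 0.23, FDR = 9.49e-05). *Dbp* had 0 of 8 peaks opened and 3 closed. Intron peaks of *Npas2* and *Rora*, which encode activators of the clock, opened, and in *Rora* the leptin libraries (10.3 and 9.11 CPM) stood above the fasted (4.59 and 2.46 CPM) and the fed ones (0.504 and 1.61 CPM). The RNA of *Per2* and *Per3* was lower in leptin-treated than in fed mice (44.1 ± 18.6 against 21.2 ± 3.24 CPM, FDR = 0.0179, and 45.5 ± 7.00 against 21.7 ± 3.08 CPM, FDR = 0.00167), and so was that of *Nr1d2* (FDR = 0.0341).

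Genes of endoplasmic reticulum stress had 13 of 84 peaks opened and 5 closed (15.5% and 5.95%, beside 23.3% and 13.4% of all peaks), or 13.1% and 11.3% with 50 kb on each side. A peak 1.66 kb from the start of *Hspa5*, the main chaperone of that compartment, was at 0.504 and 0.585 CPM in the fed, 3.56 and 5.49 CPM in the fasted and 7.18 and 4.58 CPM in the leptin libraries (log2 fold change 3.36, SE 0.56, FDR = 0.000136). The *Hspa5* RNA was at 519 ± 47.9 CPM in fed and 993 ± 150 CPM in leptin-treated mice (FDR = 0.00545). The start-site peak of *Herpud1* fell from 108 and 106 to 71.8 and 62.6 CPM (FDR = 0.000361), and with the GC offset its log2 fold change was -0.37, under the threshold. Granins and peptide processing genes had 22 of 99 peaks opened and 15 closed (22.2% and 15.2%), near the shares of all peaks. At the convertase gene *Pcsk2*, with 5 of 19 peaks opened and 3 closed, a peak rose from 1.01 and 2.19 to 15.1 and 16.5 CPM, with 13.3 and 11.4 CPM in fasted mice, while in *Pam*, the peptide amidating enzyme, with 5 of 27 opened and 6 closed, an intron peak fell from 21.7 and 20.7 to 7.11 and 7.58 CPM, with 9.89 and 9.72 CPM in fasted mice.

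Potassium channel genes had 88 of 351 peaks opened and 51 closed (25.1% and 14.5%), and ionotropic glutamate receptor genes 62 of 253 and 37 (24.5% and 14.6%), both close to the shares of all peaks. The peak near *Kcna1*, a voltage-gated channel, was at 1.13 and 3.58 CPM in the fed, 19.9 and 19.1 CPM in the fasted and 22.2 and 23.0 CPM in the leptin libraries (log2 fold change 3.09, SE 0.35, FDR = 6.08e-06). *Kcnj3*, a subunit of channels that G proteins open, had 3 of 10 peaks opened and 1 closed, and *Abcc8*, the sulfonylurea receptor of the ATP-sensitive channel, 3 of 10 and 2. Of the closed ones, an intron peak of *Kcnj3* was at 11.6 and 12.2, 2.84 and 2.46, and 2.11 and 2.66 CPM and an intron peak of *Abcc8* at 24.9 and 20.8, 10.5 and 9.09, and 6.83 and 6.73 CPM in the fed, fasted and leptin libraries.

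Among glutamate receptor genes, the NMDA receptor gene *Grin2b* had 9 of 51 peaks opened and 7 closed, and an exon peak rose from 1.26 and 1.46 to 18.5 and 13.6 CPM, with 10.3 and 13.1 CPM in fasted mice (log2 fold change 3.51, SE 0.41, FDR = 8.32e-06). In *Grin2a*, another NMDA receptor subunit with 8 of 31 opened and 6 closed, an intron peak fell from 18 and 10.7 to 2.46 and 1.58 CPM, with 6.46 and 3.47 CPM in fasted mice (-2.79, SE 0.40, FDR = 4.12e-05). In *Grik4*, a kainate receptor gene, 11 of 29 peaks were opened and 3 closed, and *Grik5* had 0 of 9 called. Both genes were chosen after their values were seen, and over all peaks 23.3% were opened and 13.4% closed.

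**Figure D5:**
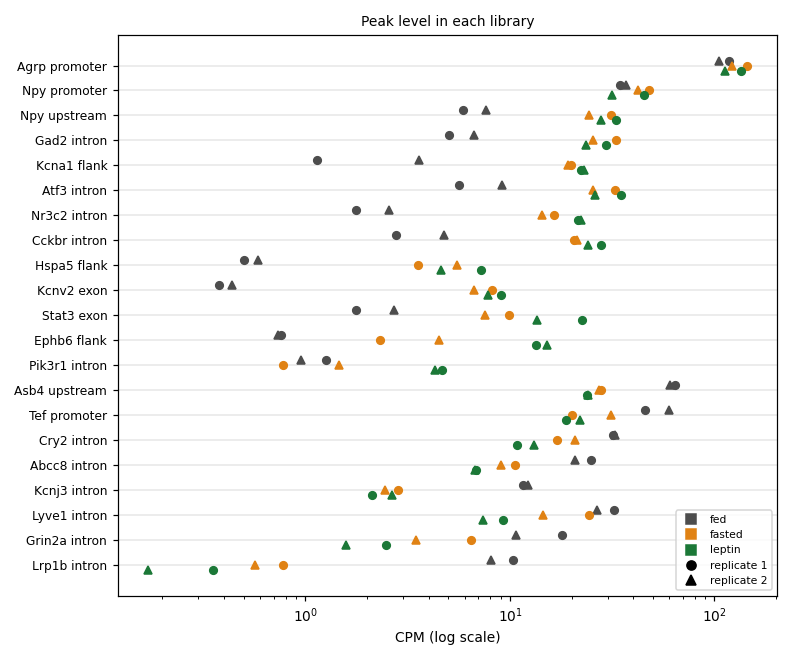
The level in CPM (log axis) of 21 peaks named in the text in each fed (grey), fasted (orange) and leptin (green) library, with circles for replicate 1 and triangles for replicate 2. For most peaks the orange and green points lie together and apart from the grey ones, while in *Pik3r1* the fasted points (0.776 and 1.45 CPM) lie beside the fed ones and in *Ephb6* between the others.

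The 5 largest increases were at peaks that held 2 to 5 counts in all in the fed libraries. An intron peak of *Immp2l* (chr12:41081724-41082195) was at 0.126 and 0.0731 CPM in the fed, which is the lowest value of the table in both, 2.39 and 3.28 CPM in the fasted and 4.93 and 6.79 CPM in the leptin libraries (fitted log2 fold change 5.87, SE 0.72, FDR = 9.23e-06). From 2 counts in the fed and 190 in the leptin libraries, the ratio was 64.4 with a 95% exact binomial interval of 17.6 to 536, which covers counting error only. With 1 subtracted from every count its fitted log2 fold change was 9.38, and that of the peak with *Smc2* as nearest gene, described next, was -8.27. The others had *Mocs2*, *C1ql1*, *Lrrc30* and *Mterf1b* as the nearest coding gene, with fitted values of 5.68, 5.58, 5.57 and 5.56, and the *Lrrc30* peak was the 1 of the 5 without an AP-1 match. The *Lrrc30* peak was at 13.7 and 13.9 CPM in the fasted and 13.4 and 9.56 CPM in the leptin libraries (FDR = 0.704 between these states).

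Of the 5 largest decreases, 1 was in an intron of *Lrp1b*, a lipoprotein receptor family member (-5.11). The others lay between genes, over 100 kb from any coding gene start, with *Smc2* (-5.30), *B230118H07Rik* (-4.99), *Arl4a* (-4.95) and *Lilr4b* (-4.81) as the nearest coding gene. None of these 5 held an AP-1 match. The leptin libraries held 2 to 8 counts in all at each, so that these fitted values depend on the lowest count of the table. The *Lrp1b* peak was at 10.3 and 8.04 CPM in the fed, 0.776 and 0.568 CPM in the fasted and 0.352 and 0.170 CPM in the leptin libraries. From 192 and 8 counts, fed was 35.4 times leptin there, with a 95% interval of 17.6 to 83.1.

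Called peaks of high level changed by much less. The opened peaks of highest mean CPM had as nearest coding gene *Uox* (46.5 and 60.8 CPM in fed, 82.6 and 74.6 CPM in leptin libraries), *Rnd3* and *Btc*, with log2 fold changes of 0.54, 0.57 and 1.02. The call at *Uox*, 2.21 kb away, was lost without fed replicate 1 and without leptin replicate 1 (FDR = 0.0908 and 0.0895), and that at *Rnd3*, 156 kb away, with the GC offset (FDR = 0.0511). The closed peaks of highest level lay 49.7 kb from *Pdia4*, 12.9 kb from *Gm47283* on chromosome Y and in *Mid1* on chromosome X, with log2 fold changes of -0.51, -0.50 and -0.51. The last 2 are in the pseudoautosomal region, whose copies on X and Y share reads, and are uncertain. There the fasted libraries (226 and 215 CPM near *Gm47283*) stood with the fed ones (216 and 204 CPM), above the leptin ones (149 and 146 CPM). These 3 calls were lost with the GC offset (FDR = 0.303, 0.401 and 0.414), and without fed replicate 1 or leptin replicate 2 their log2 fold changes fell under the threshold.

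Start-site peaks of markers of other cell types were few, and 1 each of the astrocyte, endothelial and glutamatergic lists opened. None was tested at the 7 microglia markers. Those of 2 of 3 POMC neuron markers summed to 4.83 to 8.56 CPM in the 6 libraries, and those of 3 of 5 tanycyte and ependymal markers to 67.5 to 82.9 CPM, with 0 called. Over 5 of 7 astrocyte markers the sum was 33.0 and 34.4 CPM in the fed, 37.3 and 45.6 CPM in the fasted and 43.2 and 50.9 CPM in the leptin libraries. On average the sum rose by no more than the peak at *Aqp4*, the water channel of astrocytes, did alone. A start-site peak there went from 1.26 and 1.46 CPM in the fed to 14.4 and 17.8 CPM in the leptin libraries (FDR = 5.92e-06). In the fasted libraries it was at 13.3 and 14.5 CPM. In the separately sorted nuclei it was higher in AgRP-positive than in AgRP-negative nuclei by 1.26 on the log2 scale. Within 10 kb of the 7 astrocyte markers, 7 of 37 peaks were opened and 5 closed (18.9% and 13.5%, beside 23.3% and 13.4% of all peaks). At *Gfap* 0 of 5 were opened and 2 closed. The *Aqp4* RNA was at 142 ± 66.8 CPM in fed and 87.7 ± 59.5 CPM in leptin-treated mice (FDR = 0.568, or 0.0128 with the block), and in fasted mice 1 library was at 170 CPM and the others at 38.2 to 47.8 CPM. Over 2 of 5 endothelial markers the sum was 3.40 and 7.82 CPM in the fed, 13.8 and 13.8 CPM in the fasted and 19.4 and 17.4 CPM in the leptin libraries. The opened peak behind it is counted at a start site of *Pecam1* but lies inside *Milr1*, 0.115 kb from the start of that gene, while the *Kdr* start-site peak was at 1.13 and 2.19 CPM in the fed and 1.34 and 2.72 CPM in the leptin libraries (FDR = 0.734). For 2 of 8 oligodendrocyte markers the sum was 56.7 and 61.4 CPM in the fed and 44.3 and 47.6 CPM in the leptin libraries. A peak at a start site of *Slc17a8*, a glutamate transporter of vesicles, opened (0.755 and 1.61 to 9.79 and 7.64 CPM, FDR = 8.97e-05) while its RNA fell (4.22 ± 0.109 to 1.83 ± 0.343 CPM, FDR = 0.0132), with 1 leptin library at 1.31 CPM and the others at 1.98 to 2.03 CPM. Whether a change in the cells sorted took part in any of these was not tested.

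RNA of the same genes was compared between 3 fed and 4 leptin libraries of other mice. Of 13401 genes tested, 500 were higher and 235 lower in leptin-treated than in fed mice (3.73% and 1.75%), and 715 and 433 with the replicate number as a block. Leaving out 1 library gave 266 to 564 higher and 108 to 274 lower genes, with 266 higher without fed replicate 4 and 108 lower without fed replicate 1. Of 307 genes with an opened start-site peak, 53 were higher and 4 lower (17.3% and 1.30%, median log2 fold change 0.11). Of 993 with a closed one, 17 were higher and 49 lower (1.71% and 4.93%, median -0.10). Over the 11346 genes with any start-site peak these shares were 3.86% and 1.68%. With the replicate number as a block, 65 genes with an opened start-site peak were higher and 9 lower. For a closed one these were 24 and 82, and for any start-site peak 593 and 327. The number of opened peaks within 50 kb went with smaller differences. Of 6168 genes that were the nearest coding gene of 0 opened peaks 2.80% were higher, of 2235 with 2 to 4 such peaks 6.35%, and of 313 with 5 or more 6.39%.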

How the data were processed

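ATAC-seq libraries of sorted AgRP nuclei (2 fed, 2 fasted and 2 leptin) were compared. The authors aligned the reads to mm10 with Bowtie2, called peaks with MACS2 and summed reads over peaks with bedtools, and deposited raw counts per peak (versions are not given in the sources used here). The count table held no 0 and a lowest value of 1. RNA counts per gene were deposited by the authors from HISAT2 and featureCounts. CTCF sites were deposited as MACS2 peaks with a fold enrichment, and IRF3 sites as SEACR regions with a signal, both by the authors and used here for position only.

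Peaks with a mean over 1 CPM were tested with edgeR 4.0.16 (R 4.3.3; TMM scaling, quasi-likelihood test, all 3 states in 1 model) and genes likewise, and called at FDR under 0.05 where the log2 fold change passed 0.5 in size. CPM values carry the TMM factor. SE was taken as the log2 fold change over the square root of F. The fit was tested on simulated data. Peaks were annotated with GENCODE vM21 on GRCm38, and lists took peaks within 10 kb of a gene. The share of promoter peaks was not matched between the lists and all peaks. Overlap needed 1 base. Named peaks were the 5 largest changes each way among peaks whose leptin and fed libraries do not overlap, the 3 of highest level each way, up to 2 of lowest p each way for each list, and marker start sites. Genes named with counts of peaks or with RNA alone were chosen after their values were seen. The members and lists were chosen with earlier results of these data known. Alternatives were DESeq2 1.42.0, other scalings, offsets, filters and thresholds, a replicate block, omission of each library and, chosen after seeing the data, 1 subtracted from every count and the RNA settings. In the RNA, same-numbered fed and leptin libraries deviated together (r = 0.690, 0.685 and 0.838), so that the numbers were taken to pair them. Fed replicate 3 deviated with leptin replicate 2 nearly as much (r = 0.673), so that this pairing is uncertain. All other pairs of unlike number had a negative r. Whole-arcuate and other libraries were not used here.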

Additional observations from a re-analysis of the deposited data

Results flagged for a closer look

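Among the 58 groups of 4 RNA libraries of named genes, 7 had 1 library far from the others by Dixon's criterion, which chance alone meets in about 1 group of 20. *Aqp4* was at 170 CPM in 1 fasted library and at 38.2 to 47.8 CPM in the others. *Tef* was at 2.29 CPM in 1 fasted library and at 1.69 to 1.76 CPM in the others. Of the leptin libraries, 1 was at 149.8 CPM for *Kcna1* (others 48.1 to 57.03 CPM), 1 at 3.27 CPM for *Kcnv2* (others 0.505 to 0.900 CPM), 1 at 64.1 CPM for *Nr3c2* (others 49.9 to 51.4 CPM), 1 at 43.6 CPM for *Egr1* (others 58.6 to 60.8 CPM) and 1 at 1.31 CPM for *Slc17a8* (others 1.98 to 2.03 CPM). With 2 libraries a state, the ATAC values could not be examined in this way.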

How the results depend on the processing

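No peak called in 1 direction was called in the other under any of 17 alternative settings. Peaks with a mean over 5 CPM gave 10062 opened and 4159 closed of 42458. Leaving out 1 library gave 16838 to 18692 opened and 7306 to 11933 closed peaks. DESeq2 called 20518 and 11220, the offset that follows the level 20824 and 16429, and the GC offset 19728 and 17274. The replicate numbers did not pair the fed and leptin ATAC libraries (residual correlation of same-numbered libraries -0.0055). Same-numbered fasted libraries gave 0.170 with the fed and 0.180 with the leptin ones. The replicate block gave 26051 opened and 16494 closed peaks, or 21806 and 19728 (52.5% opened) together with the GC offset. For the RNA, whose numbers were taken to pair, the block gave 715 higher and 433 lower genes, and leaving out 1 library 266 to 564 and 108 to 274. Of 1320 values of 79 peaks under these settings, 1243 kept direction and side of the threshold, 68 lost the call and 1 gained it. The sign turned in 8, all of them without a call in that setting. With the level offset the log2 fold change was 0.019 near *Pdia4*, 0.012 near *Gm47283* and 0.016 at the *Ghsr* start site, which also had 0.11 with the GC offset and 0.12 with the block and that offset. Leaving out 1 library gave -0.37 to 0.036 at *Ghsr*, -0.18 to 0.34 at the *Npy* and -0.65 to 0.060 at the *Lepr* start site. The cause was not tested. With 2 libraries a group, a peak without a call is not shown to be unchanged.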
